A study of Mus musculus with 12 samples.

Results

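The genes described here are 26 mouse genes of cholesterol synthesis and sterol sensing, followed across F9 teratocarcinoma cells with and without the retinoic acid receptor gamma gene, Rarg. They were chosen by name, with earlier results of these data known. The list holds 20 enzymes of sterol and isoprenoid synthesis, 5 genes of sterol sensing and 1 sterol carrier. Each was read from the probe set of its single symbol with the highest mean log2 signal. Of the 26 genes, 25 were measured in this way among 18193 genes on the array, and Acat2, an acetyl-CoA acetyltransferase, had no probe set with a single symbol in the annotation used. The 25 measured genes held 55 of the 45037 probe sets tested, and 9 of them had 1 probe set. F9 is a line of mouse teratocarcinoma stem cells that retinoic acid (RA) differentiates towards endoderm. Each of 4 groups had 3 Affymetrix mouse expression arrays of total RNA, 12 in all. KO_RA were F9 cells labelled knockout for Rarg in 1 µM RA for 24 h, and KO_vehicle were the same cells in the ethanol vehicle for 24 h. WT_RA were wild-type F9 cells in 1 µM RA for 24 h, and WT_vehicle were wild-type F9 cells in ethanol for 24 h. All 4 groups grew in DMEM with serum. The labels do not say how Rarg was disrupted, nor whether the KO cells are 1 clone, nor whether replicate arrays are of different cultures. The p-values therefore cover only the spread among these arrays, which may be technical.

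Cholesterol is built from acetyl-CoA in the mevalonate pathway, which yields isoprenoid units that are joined into squalene, closed into lanosterol and then trimmed to cholesterol. Transcription of most of these enzymes is raised by SREBP factors, which SCAP carries out of the endoplasmic reticulum when sterols are low and which INSIG proteins hold back there when sterols are high. Insig1 is itself a target of SREBP, so its RNA is often read together with those of the enzymes.

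The values are MAS5 signals, a linear intensity per probe set. Each change is a difference of log2(signal + 16), given with its standard error (SE) from 1 limma fit to the 12 arrays, and a gene passed the test at a Benjamini-Hochberg adjusted p under 0.05 over all 45037 probe sets. Signals of 3 arrays are given in the order of 3 runs. A run is the 4 arrays, 1 of each group, that share a clock time of hybridization in the deposited experiment files. The date was not used to form runs. Arrays of 1 run deviated from their group means together, with r between 0.13 and 0.57 (median 0.28) over 18 pairs of different groups. Over 36 pairs of different groups and runs r lay between -0.47 and 0.36 (median -0.25), so some arrays of different runs were also alike. A second fit that takes the run as a block (the blocked fit) is given beside the counts. The array medians were 71.2 to 94.6 but for KO_vehicle replicate 3, the run 1 array of that group, at 143. By clock time, again without the date, that array was scanned 316 minutes after its hybridization time. KO_RA replicate 1, with a median of 91.9, was scanned after 238 minutes, and the others after 13 to 59 minutes. All 25 genes had a mean above the background level, a signal of 88.3 that 95% of the signals of 86 chemoreceptor probe sets stayed under. Rarg had 1521, 1716 and 1672 in KO_vehicle, against 1809, 1356 and 1263 in WT_vehicle (log2 change 0.16, SE 0.19, adjusted p = 0.733), so its signal was not lower in cells labelled KO, and where its probes lie relative to the disrupted part is not known here. KO below means arrays labelled KO. All 8 markers of F9 stem cells were above background, with summed signals of 126757 to 135688 in KO_RA, 129321 to 155361 in KO_vehicle, 81103 to 93671 in WT_RA and 115528 to 117754 in WT_vehicle. Of 12 markers of endoderm-like cells 10 were above background, all but Ttr and Afp, and the summed signals were 12875 to 37222 in KO_RA, 10613 to 34501 in KO_vehicle, 67899 to 87051 in WT_RA and 76999.5 to 81407 in WT_vehicle. The low KO sums were both of run 1, against 37222 and 37094 in KO_RA and 34299 and 34501 in KO_vehicle in the other runs. In WT, run 1 had 67899 in RA and 80627 in vehicle. The blocked fit allows 1 shift per run for all 4 groups, so it does not take up a shift of KO arrays alone. Blood markers were above background for 0 of 4 in each group but WT_RA, where 1 was, and markers of fibroblasts and muscle for 1 or 2 of 8. Endothelial markers, 2 or 3 of 5 above background, summed to 1032 to 1082 in KO_RA, 954 to 1461 in KO_vehicle, 500.5 to 630.1 in WT_RA and 533 to 627 in WT_vehicle. In vehicle 2 of the 5 rose and 0 fell in KO, and in RA 1 rose and 1 fell, with the same counts in the blocked fit. Of all probe sets 1.74% were called higher and 2.56% lower in vehicle, and 2.22% and 2.72% in RA. In the blocked fit these shares were 4.32% and 5.08% in vehicle, and 4.73% and 5.19% in RA.

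Promoter sequences of 21 of the 25 measured genes were taken from RefSeq (build GRCm38.p6), as windows of 300 bases that begin upstream of a transcription start and end just after it. Fdps, Fdft1, Sqle and Stard4 are named only. Windows were searched on both strands for TCACNCCAC, a form of the sterol regulatory element that SREBP binds, for CCAAT, the site of NF-Y, and for GGGCGG, the site of Sp1. A gene with several windows was counted if any of them matched, and no match of one motif overlapped a match of another in these genes. A sterol regulatory element of these letters was found in 1 of the 21 genes, Hmgcs1, at -137 to -129 from the start, against 1.41% of the 8721 genes above background with a window. CCAAT was found in 20 of the 21, all but Scap, against 43.3% of those 8721 genes. GGGCGG was found in 19 of the 21, against 71.6%. A match describes the letters of the window and is not a measured binding site. The windows of the 5 genes with the lowest adjusted p between KO and WT in vehicle are shown, as examples of the genes called lower in KO. Capitals mark the sterol regulatory element and CCAAT, which reads ATTGG where it lies on the other strand. Hmgcs1 lies at chr13:119690101-119690400, plus strand. Tm7sf2 lies at chr19:6067801-6068100, minus strand. Msmo1 lies at chr8:64733529-64733828, minus strand. Ebp lies at chrX:8193463-8193762, minus strand. Insig1 lies at chr5:28071162-28071461, plus strand.
Hmgcs1: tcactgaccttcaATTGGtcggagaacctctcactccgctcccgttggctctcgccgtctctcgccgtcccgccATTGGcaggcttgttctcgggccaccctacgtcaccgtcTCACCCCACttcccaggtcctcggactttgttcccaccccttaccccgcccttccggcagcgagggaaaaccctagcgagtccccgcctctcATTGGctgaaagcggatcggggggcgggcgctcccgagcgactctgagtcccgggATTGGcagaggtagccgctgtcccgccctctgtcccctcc
Tm7sf2: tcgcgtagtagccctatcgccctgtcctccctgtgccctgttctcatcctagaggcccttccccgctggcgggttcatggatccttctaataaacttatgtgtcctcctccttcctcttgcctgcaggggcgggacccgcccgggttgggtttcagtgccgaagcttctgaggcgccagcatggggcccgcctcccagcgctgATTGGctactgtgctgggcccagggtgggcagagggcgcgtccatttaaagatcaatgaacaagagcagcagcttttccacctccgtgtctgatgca
Msmo1: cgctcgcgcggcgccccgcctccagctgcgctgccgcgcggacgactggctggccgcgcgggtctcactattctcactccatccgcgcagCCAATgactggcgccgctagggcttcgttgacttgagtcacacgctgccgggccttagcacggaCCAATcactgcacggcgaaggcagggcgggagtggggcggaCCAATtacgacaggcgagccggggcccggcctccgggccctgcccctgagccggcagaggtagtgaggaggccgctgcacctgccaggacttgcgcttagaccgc
Ebp: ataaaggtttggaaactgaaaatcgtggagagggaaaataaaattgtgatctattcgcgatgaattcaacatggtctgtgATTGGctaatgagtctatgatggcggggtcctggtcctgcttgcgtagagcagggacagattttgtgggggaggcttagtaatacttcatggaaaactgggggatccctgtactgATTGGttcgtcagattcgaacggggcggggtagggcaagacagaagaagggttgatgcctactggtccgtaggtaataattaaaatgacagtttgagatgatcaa
Insig1: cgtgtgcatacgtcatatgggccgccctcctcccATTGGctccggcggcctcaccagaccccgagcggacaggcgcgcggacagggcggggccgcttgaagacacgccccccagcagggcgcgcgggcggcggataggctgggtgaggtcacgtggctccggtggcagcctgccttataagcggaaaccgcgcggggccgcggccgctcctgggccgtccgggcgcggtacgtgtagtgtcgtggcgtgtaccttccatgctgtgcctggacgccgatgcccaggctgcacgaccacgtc
The Hmgcs1 window holds 4 CCAAT matches beside the sterol regulatory element, the Msmo1 window holds 3, the Ebp window 2, and the Tm7sf2 and Insig1 windows 1 each.

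The clearest difference between the groups was in genotype. In vehicle, KO cells had lower signals than WT cells for 21 of the 25 genes, with a median change of -0.62 on the log2 scale, while the median over all probe sets was 0.17 and that over genes above background was -0.0012. Relative to the median of all probe sets the members' median change was -0.80 as deposited. Centring each array on its median shifts all its probe sets alike, so it cannot change this value. With quantile normalization it was -0.61. The test was passed by 7 genes, all lower in KO: Hmgcs1, Pmvk, Cyp51, Tm7sf2, Msmo1, Ebp and Insig1. Lower calls were made for 2.56% of all probe sets, and for 721 of the 10693 genes above background, as all 25 are. The 7 of 25 genes lie above these shares. As the list was chosen with earlier results of these data known, this describes the list and does not test it. With the run as a block 16 genes passed, all lower, against 5.08% of probe sets and 1395 of the 10693 genes. No gene of the 25 rose in KO in either fit, where 1.74% of probe sets were called higher without the block and 4.32% with it. Among the 10693 genes 408 were called higher without the block and 1000 with it. Medians within the runs were -0.61, -0.51 and -0.69. The arrays of the 2 genotypes did not overlap, with KO lower, for 14 genes, against 8.35% of probe sets and 18.4% of genes above background. With KO higher they did not overlap for 2 genes, Ggps1 and Lbr, against 11.5% and 14.3%. In bulk RNA, fewer cells of a type and less RNA per cell cannot be told apart, and the markers of endoderm-like cells, of which 7 of 12 fell in KO in vehicle (10 in the blocked fit), and those of stem cells, of which 3 of 8 rose (5 in the blocked fit), moved with the same groups. The stem cell marker Pou5f1 went the other way, with 16376, 12219 and 14928 in KO_vehicle, against 22271, 17908 and 16708 in WT_vehicle. The part of cell types in the changes of the sterol genes was not tested.

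**Figure D1:**
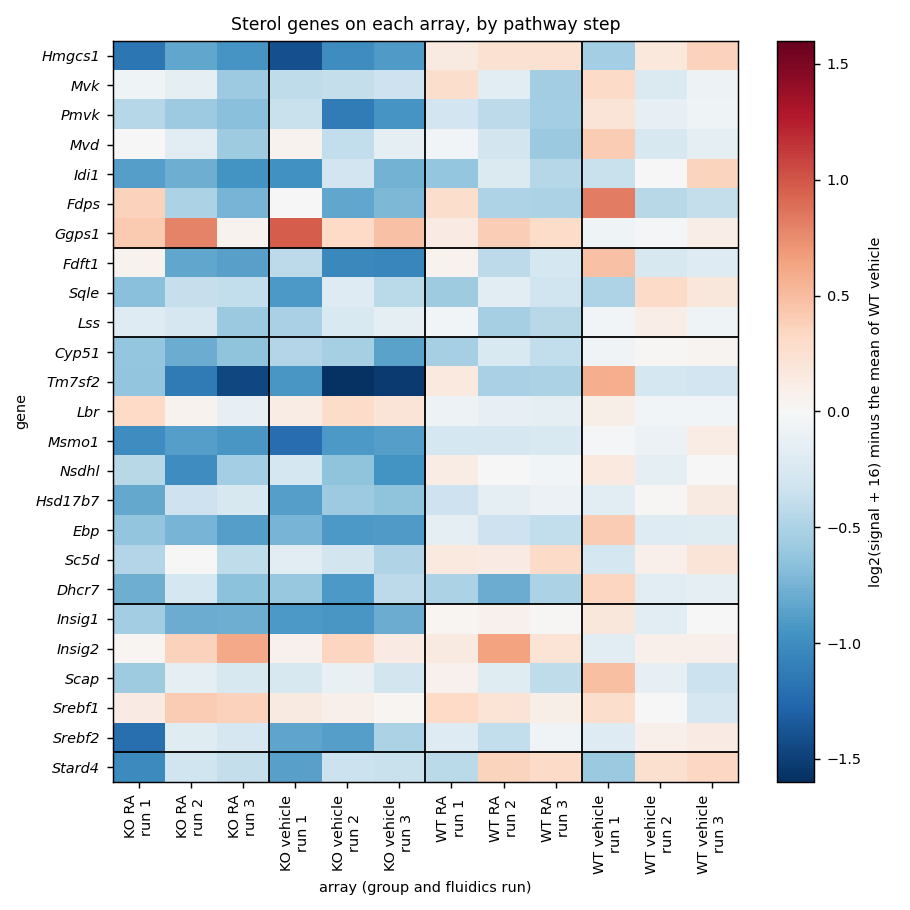
Log2(signal + 16) of each of the 25 measured genes (rows, by pathway step from the mevalonate steps at the top to Stard4 at the bottom) on each of the 12 arrays (columns, by group and run), minus the gene's mean over the 3 WT_vehicle arrays. Blue is lower and red is higher than WT_vehicle. The rows of Hmgcs1, Tm7sf2, Msmo1, Ebp and Insig1 are blue on all 6 KO arrays, while Ggps1 is red on all 6.

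The mevalonate steps held both called genes and genes that did not pass. Hmgcs1, the cytosolic synthase that makes HMG-CoA, had signals of 5035, 6699 and 7110.3 in KO_vehicle, against 9144, 15086 and 17298 in WT_vehicle. Every KO array lay below every WT array, and KO was lower within each run. The change was -1.10 (SE 0.20, adjusted p = 0.00326), 2.15 times lower on the scale of signal + 16. Its 3 other probe sets above background changed by -1.26, -1.19 and -0.93, all past the threshold. Pmvk, phosphomevalonate kinase, had 788, 458 and 521 in KO_vehicle, against 1174, 926 and 966 in WT_vehicle, and no arrays overlapped. It fell by 0.81 on the log2 scale (SE 0.20, adjusted p = 0.0272). The Pmvk call was lost without any one of KO_vehicle replicates 1 and 2 and WT_vehicle replicates 1, 2 and 3, with adjusted p up to 0.116. Idi1, the isomerase of the isoprenoid unit, had 1129, 1800.1 and 1313 in KO_vehicle, against 1732, 2219 and 2851 in WT_vehicle. The highest KO array lay above the lowest WT array, which was of another run. Its change of -0.67 had an adjusted p of 0.0675, and of 0.00359 in the blocked fit. Fdps, farnesyl diphosphate synthase, had 7199, 4033 and 4359.8 in KO_vehicle, against 12696, 5279.6 and 5537 in WT_vehicle. Both run 1 arrays were high, so the groups overlapped, and the change of -0.52 had an adjusted p of 0.489 and of 0.00566 in the blocked fit. Without WT_vehicle replicate 3, the highest array, the change was -0.11 (adjusted p = 0.909), and without KO_vehicle replicate 3 it was -0.78 (adjusted p = 0.354). Mevalonate kinase, Mvk, averaged 570.2 ± 15 in KO_vehicle and 754 ± 154 in WT_vehicle (SD, n = 3 each), and did not pass in either fit (log2 change -0.37, adjusted p = 0.45). Nor did the decarboxylase Mvd, at 673 ± 108 in KO_vehicle and 766 ± 201 in WT_vehicle (log2 change -0.16, adjusted p = 0.773). Ggps1, which makes geranylgeranyl diphosphate for protein prenylation rather than for sterols, had 652, 407 and 456 in KO_vehicle, against 307, 316 and 352 in WT_vehicle. All 3 KO arrays were the higher ones, the KO array of run 1 the most, and the change of 0.59 did not pass (adjusted p = 0.213, and 0.0982 in the blocked fit). The log2 changes of its 3 other probe sets, all above background, were 0.06, 0.05 and -0.25.

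Of the 3 genes between squalene and lanosterol none passed without the block. Fdft1, squalene synthase, had 2836, 1847 and 1828 in KO_vehicle, against 5272, 3173 and 3279 in WT_vehicle. All KO arrays were below all WT arrays, and the run 1 array was the highest of its group in both genotypes. The change of -0.83 had an adjusted p of 0.0777, and of 3.74e-05 in the blocked fit, with -0.89, -0.78 and -0.84 in the runs. As the mean of its 4 probe sets, 2 of them below background, the change of Fdft1 was -0.17. Sqle, squalene epoxidase, had 1907, 3159 and 2699 in KO_vehicle, against 2584, 4512 and 4117 in WT_vehicle. Here the run 1 arrays were the low ones and the groups overlapped, though KO was lower within each run. Its change of -0.52 had an adjusted p of 0.222, and of 0.00531 in the blocked fit. Without KO_vehicle replicate 3 it was -0.31 (adjusted p = 0.559). Lss, lanosterol synthase, had 607, 738 and 781 in KO_vehicle, against 849.8, 942 and 835 in WT_vehicle, with no overlap and a change of -0.31 that passed in neither fit (adjusted p = 0.46).

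The steps after lanosterol held 4 of the 7 called genes. Cyp51, lanosterol demethylase, had 1041, 993 and 790.1 in KO_vehicle, against 1389, 1466 and 1488 in WT_vehicle. The WT arrays lay close together and above all KO arrays. It fell by 0.62 on the log2 scale (SE 0.16, adjusted p = 0.0319), a call lost without any one of KO_vehicle replicates 1 and 2, WT_RA replicate 2 and WT_vehicle replicates 1 and 2, with adjusted p up to 0.154. Tm7sf2, a sterol reductase, had 577, 363 and 375 in KO_vehicle, against 1681, 920.0 and 901 in WT_vehicle. KO was lower in each run, with log2 differences of -1.52, -1.31 and -1.23. Its change of -1.35 (SE 0.28, adjusted p = 0.00964) had the greatest size among the 25 genes, and without KO_vehicle replicate 2 its adjusted p was 0.0541. Lbr, the lamin B receptor of the inner nuclear membrane, carries the same reductase activity as Tm7sf2. It had 7425, 8388 and 7925 in KO_vehicle, against 7324, 6642 and 6632 in WT_vehicle, and its change of 0.20 did not pass (adjusted p = 0.498, 95% interval -0.08 to 0.49). The interval of Tm7sf2 was -1.95 to -0.75, and the difference between the genes was not itself tested.

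Msmo1, the methylsterol monooxygenase that starts removal of the methyl groups at the fourth carbon, had 2393, 2951 and 3027 in KO_vehicle, against 5540.4, 5242 and 6072 in WT_vehicle. All 3 KO arrays were far below the lowest WT array. Its change of -1.01 (SE 0.13) had the lowest adjusted p of the 25 genes, 0.0002, and it was called under every alternative tried and without any one array. Nsdhl, the dehydrogenase that acts after Msmo1, had 1028, 799 and 639.9 in KO_vehicle, against 1406, 1131 and 1247 in WT_vehicle. The groups did not overlap, and its change of -0.63 had an adjusted p of 0.0845, and of 0.00691 in the blocked fit. Hsd17b7, the keto reductase of the step after Nsdhl, had 404, 502 and 482 in KO_vehicle, against 674, 770.4 and 845 in WT_vehicle. No arrays overlapped either, with a change of -0.70 at an adjusted p of 0.0521, and of 0.00361 in the blocked fit. As the mean of its 4 probe sets, all above background, it was -0.31. Ebp, the sterol isomerase, had 3607, 3192 and 3223 in KO_vehicle, against 7974, 5208 and 5287 in WT_vehicle. The WT array of run 1 stood well above the other two, and all KO arrays were lower than any of them. Ebp fell by 0.85 on the log2 scale (SE 0.16, adjusted p = 0.00472), and by 0.65 without the high WT_vehicle replicate 3. Sc5d, the desaturase, had 825, 758 and 659 in KO_vehicle, against 761, 984 and 1072 in WT_vehicle, with overlap and a change of -0.32 that passed in neither fit (adjusted p = 0.435). Dhcr7, a reductase of the last step, had 493, 392 and 565 in KO_vehicle, against 966, 667 and 677 in WT_vehicle. KO arrays were all lower, and the change of -0.65 had an adjusted p of 0.116, and of 0.0344 in the blocked fit.

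**Figure D2:**
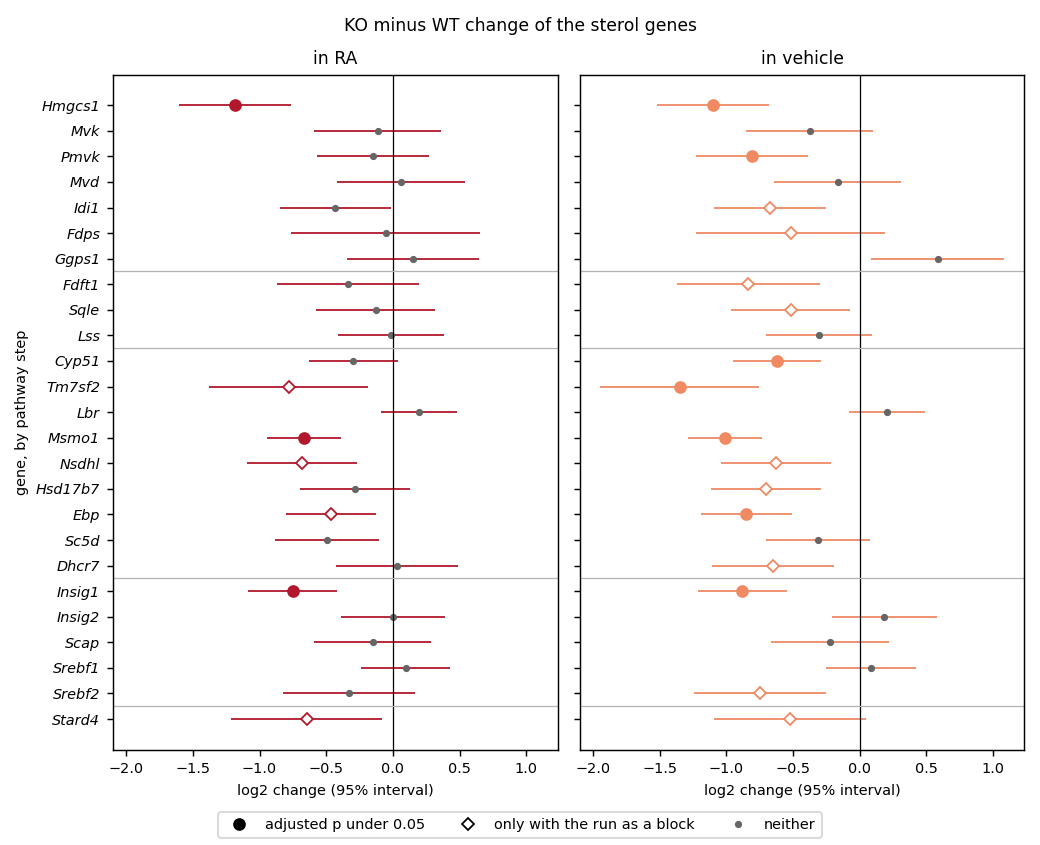
KO minus WT log2 change of each gene in RA (left) and in vehicle (right), with the 95% interval of the fit without the block; filled circles passed the test, open diamonds passed in the blocked fit only, small dots in neither fit. In vehicle 7 filled circles and 9 diamonds lie left of 0, in RA 3 filled circles and 4 diamonds.

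Of the 5 genes of sterol sensing 1 fell, Insig1, and Srebf2 joined it in the blocked fit. Insig1, an anchor of SCAP in the endoplasmic reticulum, had 623, 619 and 683 in KO_vehicle, against 1357, 1055 and 1185 in WT_vehicle. The KO arrays lay within a narrow band below all WT arrays. It fell by 0.88 on the log2 scale (SE 0.16, adjusted p = 0.00318) and was called under every alternative tried and without any one array. Insig2, the other anchor, had 947, 1151 and 991 in KO_vehicle, against 803, 949.9 and 958 in WT_vehicle, with overlap and a change of 0.18 that did not pass (adjusted p = 0.68, 95% interval -0.21 to 0.58). Srebf2, the factor that acts mainly on sterol genes, had 588, 575 and 747 in KO_vehicle, against 928, 1132 and 1170.0 in WT_vehicle. All KO arrays were lower, and the change of -0.75 had an adjusted p of 0.0907, and of 0.00744 in the blocked fit. Srebf1, the factor that acts mainly on fatty acid genes, had 1540.3, 1474 and 1422 in KO_vehicle, against 1694, 1384 and 1153 in WT_vehicle, with overlap and a change of 0.08 (adjusted p = 0.843). Scap, the escort of both factors, had 864, 948 and 836 in KO_vehicle, against 1445, 938 and 811 in WT_vehicle, and its change of -0.22 was made up of -0.73 in run 1 and 0.01 and 0.04 in the other runs (adjusted p = 0.651). Stard4, a carrier of cholesterol between membranes, had 843, 1217 and 1209 in KO_vehicle, against 1025, 1855 and 1955 in WT_vehicle. Its run 1 arrays were low in both genotypes, and the change of -0.52 had an adjusted p of 0.361, and of 0.00742 in the blocked fit. Without WT_vehicle replicate 3 it was -0.82 (adjusted p = 0.0872). With each array centred on its median, Lbr, Insig2 and Srebf1 were lower in KO_vehicle too, and 24 of the 25 genes were lower, all but Ggps1.

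**Figure D3:**
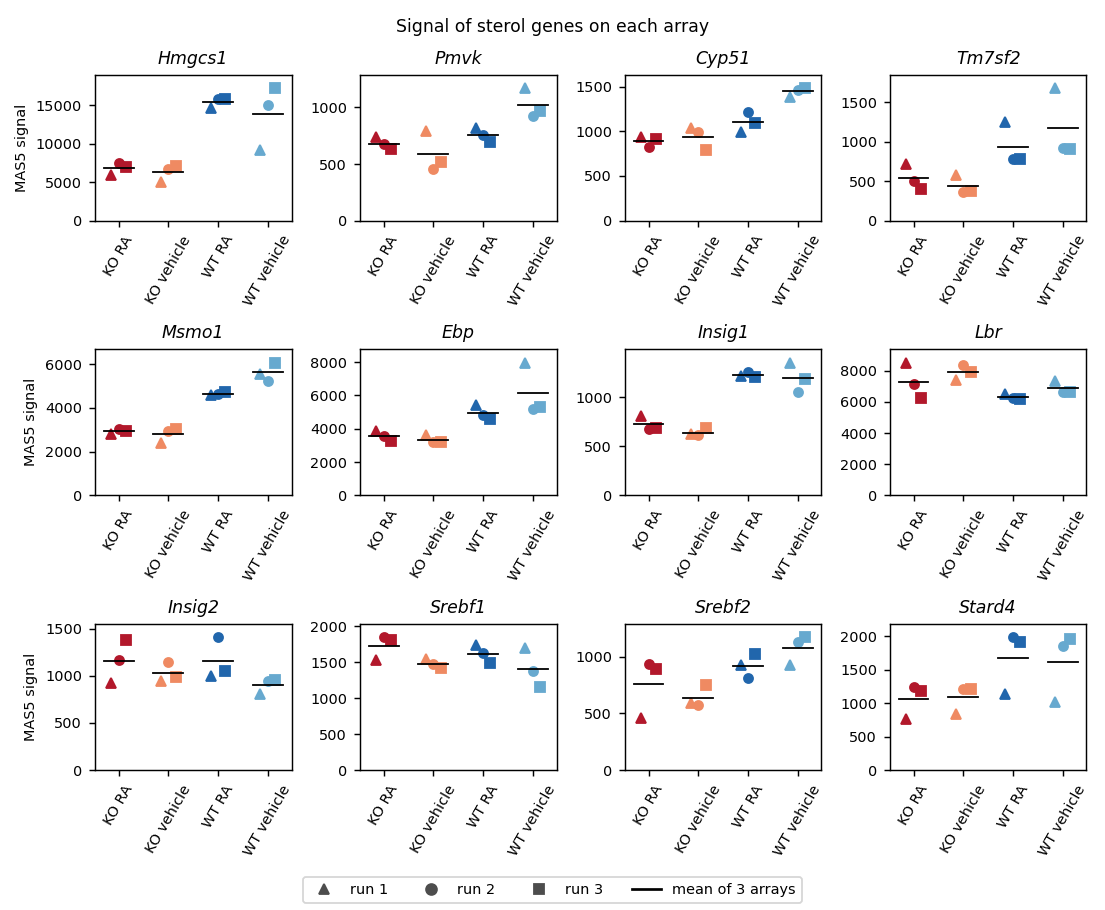
MAS5 signal (linear, from 0) of 12 of the genes on each array, by group from KO_RA at the left to WT_vehicle at the right; markers give the run and bars the mean of 3 arrays. Hmgcs1, Tm7sf2, Msmo1, Ebp and Insig1 lie lower on all 6 KO arrays than on the WT arrays of the same run, and Stard4 is lowest on the run 1 array of every group.

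Dimmer probe sets of the same genes were read as a second measure from the same RNA. In vehicle 19 of the 21 other probe sets above background, from 13 genes, had the sign of the gene's brightest one, and 0 were called in the opposite direction. For 5 genes a dimmer probe set was called lower in KO_vehicle although the brightest one was not. These were Idi1 (-0.92, adjusted p = 0.0161), Fdft1 (-0.60, adjusted p = 0.0291), Lss (-1.03, adjusted p = 0.0417), Srebf2 (-1.01, adjusted p = 0.034) and Stard4 (-0.75, adjusted p = 0.0101). The dimmer Stard4 probe set had 806, 797 and 721 in KO_vehicle, against 1127, 1366 and 1452 in WT_vehicle, and all its KO arrays were lower. That of Lss had 132, 151 and 232 in KO_vehicle, against 379, 338 and 353 in WT_vehicle. The second Cyp51 probe set, at 472, 395 and 467 in KO_vehicle against 1080.0, 734 and 992 in WT_vehicle, was called as well, at -1.03 (adjusted p = 0.0203).

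The count of called genes in vehicle was 2 with no intensity trend in the variance (Msmo1 and Insig1), 13 with array weights and 16 in the blocked fit, and 4 without KO_vehicle replicate 2. Over all probe sets, 40.5% of the calls in vehicle were higher in KO as deposited, and 12.3% with each array centred on its median.

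In RA the same comparison gave 3 calls. KO_RA cells had lower signals than WT_RA cells for 19 of the 25 genes (16 with each array centred on its median). The median change was -0.28, while the median was -0.05 over all probe sets and -0.02 over genes above background. Relative to the median of all probe sets the members' median was -0.23. Hmgcs1, Msmo1 and Insig1 fell, 3 of 25 genes against 2.72% of probe sets and 729 of the 10693 genes above background called lower. None rose in either fit, against 2.22% of probe sets called higher and 4.73% in the blocked fit. With the run as a block 7 genes fell, adding Tm7sf2, Nsdhl, Ebp and Stard4, against 5.19% of probe sets and 1339 of the 10693 genes. For 9 genes all KO_RA arrays were below all WT_RA arrays, against 12.6% of probe sets and 20.9% of genes above background. For 0 genes they were above them, against 9.83% and 17.7%. Of the markers, 7 of 12 for endoderm-like cells fell (10 in the blocked fit) and 6 of 8 for stem cells rose in KO_RA (6 in the blocked fit), and their part was not tested here either.

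Hmgcs1 had 5982, 7514 and 6965 in KO_RA, against 14705, 15803 and 15811 in WT_RA, a change of -1.18 (SE 0.20, adjusted p = 0.0014). The 3 WT_RA arrays were nearly equal and all KO_RA arrays were far below them. Msmo1 had 2808, 3029.7 and 2936 in KO_RA, against 4592, 4652 and 4722 in WT_RA, a change of -0.67 (SE 0.13, adjusted p = 0.00488). Insig1 had 807, 680.0 and 685 in KO_RA, against 1218, 1256 and 1205 in WT_RA, a change of -0.75 (SE 0.16, adjusted p = 0.00798). For these 3 genes the spread within each group was small beside the gap between the genotypes. Tm7sf2 had 719, 503 and 396 in KO_RA, against 1251, 775 and 782 in WT_RA, with no overlap and a change of -0.78 (adjusted p = 0.153, and 0.00084 in the blocked fit). Nsdhl had 917, 622 and 857 in KO_RA, against 1361, 1249 and 1214 in WT_RA, a change of -0.68 just short of the threshold (adjusted p = 0.0532, and 0.00321 in the blocked fit). It passed without any one of KO_RA replicate 3, KO_vehicle replicates 2 and 3 and WT_vehicle replicate 3. Ebp had 3888, 3584 and 3255 in KO_RA, against 5417, 4798 and 4599.5 in WT_RA, a change of -0.46 (adjusted p = 0.131, and 0.00937 in the blocked fit). Stard4 had 759, 1241 and 1188 in KO_RA, against 1145, 1987 and 1921 in WT_RA, a change of -0.65 made up of -0.58, -0.67 and -0.69 in the runs (adjusted p = 0.241, and 0.000989 in the blocked fit). Without KO_RA replicate 3 that change was -0.42 (adjusted p = 0.595).

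Other genes lay closer together in RA. Idi1 had 1204, 1288 and 1134 in KO_RA, against 1436, 1882 and 1609 in WT_RA, a change of -0.43 with no overlap (adjusted p = 0.313, and 0.0694 in the blocked fit). Cyp51 had 933, 828 and 918 in KO_RA, against 996, 1219.6 and 1094 in WT_RA, also with no overlap, at -0.30 (adjusted p = 0.42), while its second probe set, with 385, 187 and 339 in KO_RA against 531, 586 and 597 in WT_RA, was called at -0.94 (adjusted p = 0.032). Sc5d had 665, 938 and 699 in KO_RA, against 1042, 1023 and 1157 in WT_RA, at -0.49 (adjusted p = 0.177). These KO_RA arrays were all below the WT_RA arrays without passing the test. Pmvk, called in vehicle, had 735, 675 and 633 in KO_RA, against 819, 757 and 693 in WT_RA, and its groups overlapped at -0.15 (adjusted p = 0.848, 95% interval -0.57 to 0.27). Dhcr7 had 436, 621 and 478 in KO_RA, against 531, 432 and 529 in WT_RA, with overlap at 0.03 (adjusted p = 0.981). Within the runs KO_RA was lower in all 3 for Pmvk and in 2 of 3 for Dhcr7. Srebf2 had 455, 938 and 890.0 in KO_RA, against 923, 812 and 1027 in WT_RA, where the low KO value was of run 1 alone (log2 change -0.33, adjusted p = 0.611). Fdft1 had 3958, 2136 and 2067 in KO_RA, against 3962, 2835 and 3137 in WT_RA, at -0.34 (adjusted p = 0.647, and 0.0801 in the blocked fit). Fdps had 9282, 5037 and 4286 in KO_RA, against 8739.9, 5097 and 5045 in WT_RA, at -0.05 (adjusted p = 0.976). For these genes, too, the groups overlapped. Sqle had 2271, 2804 and 2775 in KO_RA, against 2451, 3231 and 2922 in WT_RA, at -0.13 (adjusted p = 0.884). Hsd17b7 had 425, 598 and 633 in KO_RA, against 601, 688 and 714 in WT_RA, at -0.28 (adjusted p = 0.598). For Sqle and Hsd17b7 the groups overlapped across runs, while KO_RA was lower within each run. The remaining genes, Mvk, Mvd, Ggps1, Lss, Lbr, Insig2, Scap and Srebf1, had changes between -0.15 and 0.20, and none passed in either fit. With each array centred on its median 0 genes passed in RA, the adjusted p of Hmgcs1 being 0.0721, while without WT_vehicle replicate 3, whose group is not compared here but shares the estimate of the spread, 5 passed.

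RA itself moved no sterol gene past the threshold within either genotype. In KO cells 0 of 25 genes were called in either fit, where 0.0799% of all probe sets were called, and 0.302% in the blocked fit. An unadjusted p under 0.05 was found for 0 of the 25, against 2670 of the 45037 probe sets and 633 of the 10693 genes above background. The KO_RA and KO_vehicle arrays overlapped for all 25 genes, where RA was higher without overlap for 3.56% of probe sets and lower for 6.47%. Among genes above background these shares were 7.64% and 4.01%. Signals were higher in RA for 16 genes and lower for 9. The median change was 0.08, beside -0.11 over all probe sets and 0.03 over genes above background. With each array centred on its median all 25 were higher, and the median over all probe sets was then 0.14. In WT cells 0 of 25 were called in either fit, where 0.469% of all probe sets were called (2.11% in the blocked fit). An unadjusted p under 0.05 was found for 4 of the 25. The same held for 2990 of the 45037 probe sets and for 1329 of the 10693 genes above background. Signals were lower in RA for 17 genes (20 with each array centred on its median) and higher for 8. The median was -0.21, beside 0.05 over all probe sets and 0.04 over genes above background. Leaving out WT_vehicle replicate 3 gave a median of -0.07, and leaving out WT_RA replicate 1 gave -0.14. No arrays overlapped, with RA lower, for 5 genes in WT cells, Pmvk, Cyp51, Lbr, Msmo1 and Dhcr7, against 5.82% of probe sets. With RA higher none overlapped for 2 genes, Ggps1 and Insig2, against 8.87%. Among genes above background these shares were 9.47% and 12.6%.

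In WT cells the 4 genes under an unadjusted p of 0.05 were Dhcr7, Cyp51, Idi1 and Pmvk, all with lower means in RA. Dhcr7 had 531, 432 and 529 in WT_RA, against 966, 667 and 677 in WT_vehicle, a change of -0.60 (unadjusted p = 0.0131, adjusted p = 0.485). Cyp51 had 996, 1219.6 and 1094 in WT_RA, against 1389, 1466 and 1488 in WT_vehicle, a change of -0.39 (adjusted p = 0.609). Both genes were lower in RA on every array. Pmvk had 819, 757 and 693 in WT_RA, against 1174, 926 and 966 in WT_vehicle, at -0.42 (adjusted p = 0.751), and Idi1 had 1436, 1882 and 1609 in WT_RA, against 1732, 2219 and 2851 in WT_vehicle, at -0.44 (adjusted p = 0.714). Msmo1 had 4592, 4652 and 4722 in WT_RA, against 5540.4, 5242 and 6072 in WT_vehicle, lower on every array at -0.27 (adjusted p = 0.779), and Lss had 849.9, 599 and 638 in WT_RA, against 849.8, 942 and 835 in WT_vehicle, at -0.34 (adjusted p = 0.834). Insig1 and Hmgcs1, which fell in KO, had RA changes in WT cells of 0.04 (95% interval -0.29 to 0.37) and 0.21 (95% interval -0.21 to 0.63).

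In KO cells the lowest unadjusted p of the 25 genes was 0.187, of Srebf1, with 1533, 1846 and 1805 in KO_RA, against 1540.3, 1474 and 1422 in KO_vehicle (log2 change 0.22, adjusted p = 0.914). Its run 1 arrays were nearly equal and the other KO_RA arrays were higher. Pmvk had 735, 675 and 633 in KO_RA, against 788, 458 and 521 in KO_vehicle, at 0.24 (adjusted p = 0.927), with overlap because the run 1 array of KO_vehicle was the highest of the 6. The change in KO cells was 0.23 for Hsd17b7, 0.29 for Fdft1, 0.17 for Insig1 and -0.20 for Idi1, with adjusted p between 0.927 and 0.944. The remaining 19 changes lay between -0.16 and 0.28.

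**Figure D4:**
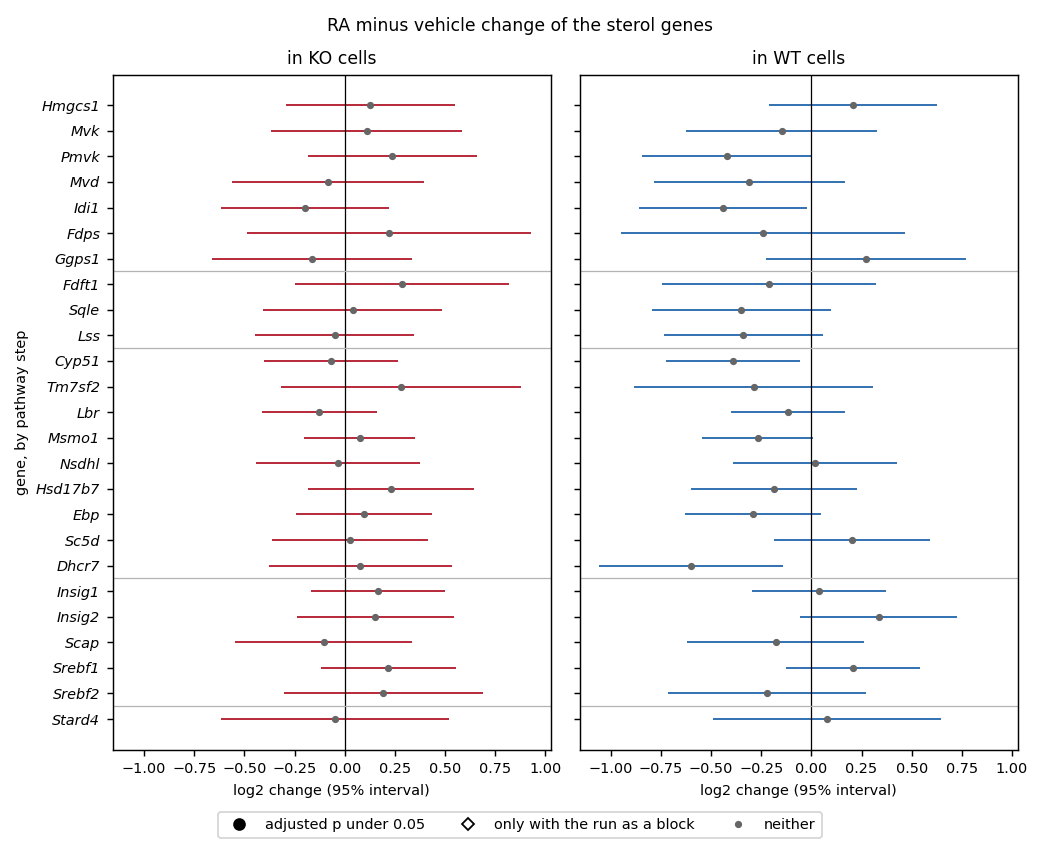
RA minus vehicle log2 change of each gene in KO cells (left) and in WT cells (right), with the 95% interval of the fit; all points are small dots, since no gene passed in either fit. Most intervals reach across 0, and the points of WT cells lie mostly left of it.

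The difference of the RA changes, KO minus WT, was tested as an interaction in the same fit. It was called for 0 of the 25 genes and for 0 of all probe sets, a share of 0%, and in the blocked fit for 0 of the 25 and 22 probe sets (0.0488%). An unadjusted p under 0.05 was found for 2084 of the 45037 probe sets and for 391 of the 10693 genes above background. Of the 25 genes 2 had one, Dhcr7 at 0.68 (SE 0.31, adjusted p = 0.978) and Pmvk at 0.66 (SE 0.28, adjusted p = 0.978). For both genes all WT_RA arrays were below all WT_vehicle arrays, while KO_RA and KO_vehicle overlapped. The next were Msmo1 at 0.34, Ebp at 0.39, Hsd17b7 at 0.42 and Cyp51 at 0.32. The difference was above 0 for 18 genes (24 with each array centred on its median). Its median was 0.26, beside -0.16 over all probe sets and 0.01 over genes above background. Hmgcs1 stood at -0.08 (95% interval -0.67 to 0.51). No gene of the 25 was thus shown to differ between RA and vehicle in its genotype change.

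Other genes of lipid synthesis, from lists chosen with earlier results known, stood beside the sterol genes as follows. Of 15 fatty acid synthesis genes that SREBP is known to act on 14 were measured, and 3 fell in KO in vehicle and the same 3 in RA, where 2.56% and 2.72% of all probe sets were called lower, with medians of -0.48 in vehicle and -0.49 in RA. In the blocked fit 6 fell in vehicle, against 5.08% of probe sets, and 7 in RA, against 5.19%, and none rose. Among the 10693 genes above background 721 were called lower in vehicle and 729 in RA, and 1395 and 1339 in the blocked fit. The 3 called without the block were Scd1, Elovl5 and Fads1. Scd1, the stearoyl-CoA desaturase, had 1591, 1745 and 1679 in KO_vehicle, against 3807, 3908 and 3655 in WT_vehicle (-1.17, adjusted p = 5.44e-05). In vehicle the elongase Elovl5 changed by -0.74 (adjusted p = 0.00181) and the desaturase Fads1 by -0.82 (adjusted p = 0.00373). The changes of Scd1, Elovl5 and Fads1 in RA were -1.14, -0.62 and -0.65. Of 15 genes of sterol efflux, uptake, transport and storage 13 were measured, and 2 fell in vehicle, Apoe, the lipoprotein ligand, with 1632, 1053 and 864 in KO_vehicle, against 6767, 7019 and 7133 in WT_vehicle (-2.59, adjusted p = 8.28e-07), and the receptor Scarb1 (-0.85, adjusted p = 0.0155). In RA Apoe (-2.30) and the cholesterol exporter Abca1 (-1.63, adjusted p = 0.00843) fell, and the lysosomal lipase Lipa rose (1.67, adjusted p = 0.00827), with 279.7, 396 and 418 in KO_RA, against 142, 111 and 66.2 in WT_RA. In the blocked fit 4 genes of that list fell and 1 rose in each comparison. Probe sets called higher were 1.74% in vehicle and 2.22% in RA, and 4.32% and 4.73% in the blocked fit. Of 9 genes of SREBP processing and INSIG degradation 8 were measured and 0 were called in either comparison without the block, while in the blocked fit 1, Mbtps1, fell in vehicle and 0 in RA, with medians of -0.13 in vehicle and -0.10 in RA. In that list Mbtps1, a protease that cuts SREBP, had 3187, 3430.0 and 2909 in KO_vehicle, against 4433, 4084 and 3854 in WT_vehicle, at -0.38 (adjusted p = 0.118, and 0.0312 in the blocked fit). In vehicle 2 of the 8 genes had an unadjusted p under 0.05. The same held for 7255 of the 45037 probe sets and for 3072 of the 10693 genes above background.

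The branches that leave the mevalonate pathway before squalene showed no common direction. Of 13 such genes 12 were measured, and in vehicle 2 rose and 2 fell in KO, with a median of 0.07, where 1.74% of all probe sets were called higher and 2.56% lower. In the blocked fit 2 rose and 3 fell in vehicle, and 2 rose and 1 fell in RA. The blocked shares of all probe sets were 4.32% higher and 5.08% lower in vehicle, and 4.73% and 5.19% in RA. Without the block 2.22% were called higher and 2.72% lower in RA. Rabggtb, a subunit of the Rab prenyl transferase, had 4210.0, 4751 and 4093 in KO_vehicle, against 1372, 1769 and 2395 in WT_vehicle (1.26, adjusted p = 0.000285). Fntb, the beta subunit of farnesyl transferase, had 748, 1090.5 and 1322 in KO_vehicle, against 432, 464 and 536 in WT_vehicle (1.08, adjusted p = 0.0231). Coq2, of ubiquinone synthesis, had 800.3, 635 and 646 in KO_vehicle, against 1548, 1502 and 1389 in WT_vehicle (-1.08, adjusted p = 0.000452), and Dhdds, of dolichol synthesis and named after its values were seen, changed by -0.75 (adjusted p = 0.0463). In RA Rabggtb rose (0.83) and Coq2 fell (-0.89), with a median of -0.0026 over the 12 genes. Of 6 further sterol genes 2 were read, Acat1, which makes acetoacetyl-CoA and fell in vehicle (-0.53, adjusted p = 0.0389), and Idi2, with a mean below the background level. In the blocked fit Acat1 fell in RA too (-0.46, adjusted p = 0.0153), and Idi2 was called higher in vehicle (1.85, adjusted p = 0.0263).

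**Figure D5:**
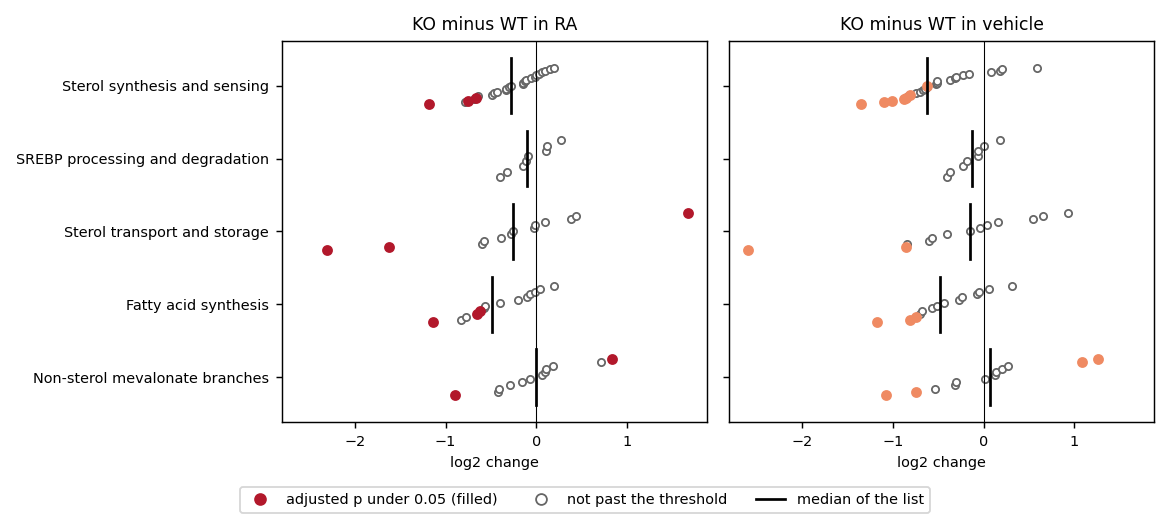
KO minus WT log2 change of each measured gene of 5 lists in RA (left) and in vehicle (right); filled points passed the test, open points did not, and the bar is the list's median. The medians of sterol synthesis and sensing (-0.28 in RA, -0.62 in vehicle) and fatty acid synthesis (-0.49 in RA, -0.48 in vehicle) lie left of 0, and that of the non-sterol branches lies near it.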

How the data were processed

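The members and gene lists were chosen with earlier results of these data known. Each array's values are MAS5 signals, a linear intensity per probe set, made by the authors with MAS5 per the submitters' processing notes; the deposited intensity values show each array scaled to a 2% trimmed mean of 500. Tests covered 45037 of 45101 probe sets, all but 64 controls; 34945 of them had 1 gene symbol in the platform annotation, 932 several and 9160 none. A gene was read from its brightest probe set, and some genes of the further sterol list are not reported here.

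Signals were tested as log2(signal + 16) in limma 3.58.1 (R 4.3.3), with 4 group means in 1 fit, an intensity trend, 8 residual degrees of freedom (6 with the run as a block) and Benjamini-Hochberg adjustment over all probe sets at 0.05. The code was tested on simulated data. The number of arrays, 3 a group, limits the precision. Groups came from the sample labels, whose replicate numbers are not shared between groups. Runs come from the clock times of hybridization in the deposited experiment files, without the date. Arrays of 1 run had correlated deviations (r 0.13 to 0.57), and pairs of different runs had r from -0.47 to 0.36. Run 1 holds the arrays with letter-coded titles, so run 1 and the letter code cannot be told apart. Values on every array are given for members called in either fit in any of 5 contrasts and for the 6 with the smallest p in each, and up to 3 genes of each other list are named by smallest p. Alternatives were pseudocounts of 1 and 64, quantile normalization, arrays centred on their median, array weights, no intensity trend, tests of probe sets over background alone, blocks by run, title code or chip lot, the mean of a gene's probe sets, a threshold of 0.01, a fit to the compared groups alone, and each array left out.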

Additional observations from a re-analysis of the deposited data

How the results depend on the processing

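The labels give no replicate numbers shared by the groups, so the paired analysis is that with arrays paired by run, as a block. Between KO and WT in vehicle 7 genes were called, against 2 with no intensity trend, 13 with array weights, 16 with the run or with the title code as a block, 15 with the run as a block without KO_vehicle replicate 3, and 12 with centred arrays in the run block fit, an alternative added after seeing the data. In RA 3 were called, against 0 with centred arrays, 1 with no trend, 7 with array weights, 7 with the run as a block, 8 with the title code as a block, 8 with the run as a block without KO_vehicle replicate 3, and 1 with centred arrays in the run block fit. With centred arrays, with or without the run as a block, the median change of the genes was -0.84 for KO against WT in vehicle, -0.16 for KO against WT in RA, 0.33 for RA in KO, -0.31 for RA in WT and 0.60 for the difference of RA changes. The median for KO against WT in RA was -0.22 with quantile normalization and -0.18 with array weights. That of the difference was 0.11 with the mean of all probe sets of a gene and 0.18 with the run as a block without KO_vehicle replicate 3. The change of Fdps in vehicle was 0.32 (adjusted p = 0.747) with the mean of all its probe sets, 1 of which was below background, against -0.52 for the brightest, and the same choice gave -0.17 for Fdft1 and -0.31 for Hsd17b7. The cause of these shifts was not tested.

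Leaving out each array in turn gave 4 to 10 called genes in vehicle, the lowest without KO_vehicle replicate 2 and the highest without KO_RA replicate 3, and 3 to 5 in RA, the highest without WT_vehicle replicate 3. Medians then lay between -0.67 and -0.56 in vehicle, -0.28 and -0.19 in RA, 0.05 and 0.12 for RA in KO, -0.26 and -0.070 for RA in WT, and 0.19 and 0.30 for the difference. Hmgcs1, Msmo1, Ebp and Insig1 kept their calls in vehicle without any one array, as did Hmgcs1, Msmo1 and Insig1 in RA. Array number and signal over background limit what could be called for dim genes.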
